A study of Mus musculus with 5 samples.

Results

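The endothelium of tumors grown from the human hepatoma line KYN-2 was compared with liver sinusoidal endothelial cells (LSECs), gene by gene, on 2 of the 5 mouse expression arrays of the series. LSECs came from the livers of mice that the labels give as C57BL/6. Tumor endothelial cells (TECs) came from KYN-2 tumors in mice that the labels also give as C57BL/6. According to the methods, hepatoma cells were grown as orthotopic tumors in the liver of mice that were female, 6-week-old, and either C57BL/6 or athymic BALB/c nu/nu, the latter lacking mature T cells, and which of these carried KYN-2 is not stated for the arrays. CD31-positive cells were taken from collagenase-digested tumor with magnetic beads, so that any cell with CD31 on its surface, or held to such a cell, could enter the sample. No treatment is given for either sample. The other arrays, used only as context, held TECs of HAK-1B tumors (another human line), TECs of Hepa1-6 tumors (a mouse line) and cultured Hepa1-6 cells. The comparison asks which transcripts differ between the vessels of a human xenograft and those of mouse liver.

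LSECs line the blood channels of the liver. They are fenestrated, lack an ordinary basement membrane, clear waste from the blood through scavenger receptors, and send Wnt, BMP and other signals to hepatocytes. Vessels that grow into a tumor respond to VEGF and other factors released under low oxygen, form sprouts led by tip cells, lay down and digest matrix, and often lose the features of the organ in which they arise. Bead-isolated tumor endothelium can carry along macrophages, neutrophils, pericytes and fibroblasts that lie against the vessel, and also tumor cells. The paper measured the purity of its isolated LSECs and TECs, KYN-2 TECs among them, by fluorescence-activated cell sorting. It also states that carry-over of cancer cells cannot be avoided with this isolation, and it removed cancer cell-related genes from its list. No such removal was made here.

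A gene's value is its brightest probe, as log2 of the background-subtracted signal after quantile normalization of these 2 arrays, and the log2 ratio is KYN-2 TEC minus LSEC. Probes flagged well above background on at least 1 of both arrays were kept, which left 21906 gene names, of which 17200 were gene symbols. With 1 array a side there was no replicate check and no test could be made. A ratio is therefore a description of these 2 samples, and the number of arrays limits its precision. Within an array, probes printed 10 times had a median coefficient of variation of 2.73% for LSEC and 2.70% for KYN-2 TEC, and the scanner's own error model put the median error of a log2 ratio at 0.20 for genes above background on both. The LSEC array was the only array of the series on its slide and the KYN-2 TEC array shared a slide with the other TEC arrays, so slide and sample cannot be told apart. Fewer cells of a type and less RNA per cell cannot be told apart either. The probes of the Y-linked genes Ddx3y (7.35 in LSEC and 7.50 in KYN-2 TEC) and Uty (7.21 and 7.06) were well above background on both arrays, whereas the Xist probes were not above background on either, although the methods name female mice.

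Of the 21906 gene names, 1599 (7.30%) were over 4-fold higher in KYN-2 TEC and 1498 (6.84%) were over 4-fold lower. Of the 17200 symbols, 1226 (7.13%) were higher and 1151 (6.69%) lower, with a median log2 ratio of -0.05 and quartiles of -0.71 and 0.61. These percentages and this median are the background against which each gene group below is read. Among the higher symbols, 616 were above background on both arrays and 610 on the KYN-2 TEC array alone. Among the lower symbols, 564 were above background on both and 587 on the LSEC array alone. A gene that was dim on 1 array has only a bound, given as "at least", which takes the dim side at the lowest signal that passed as well above background there (4.27 in LSEC and 2.87 in KYN-2 TEC) or at its own value where that was higher. The bound itself exceeded 4-fold for 216 of the 610 and 471 of the 587. Bounds hold for this background subtraction only. With another background correction some ratios were smaller than their bound, as given below. Because the lowest passing signal was higher in LSEC, a rise can reach a smaller bound than a fall of the same brightness. The counts of the 2 directions are therefore not alike. A difference over 16-fold, with both arrays above background, was found for 91 higher and 46 lower symbols. At the edge of the rule, Ramp3 at 2.001 and Zfand4 at 2.001 were just inside and Myh10 at 1.999 just outside on the higher side, and Tmem64 at -2.002 was just inside and Gimap8 at -1.998 just outside on the lower side.

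**Figure D1:**
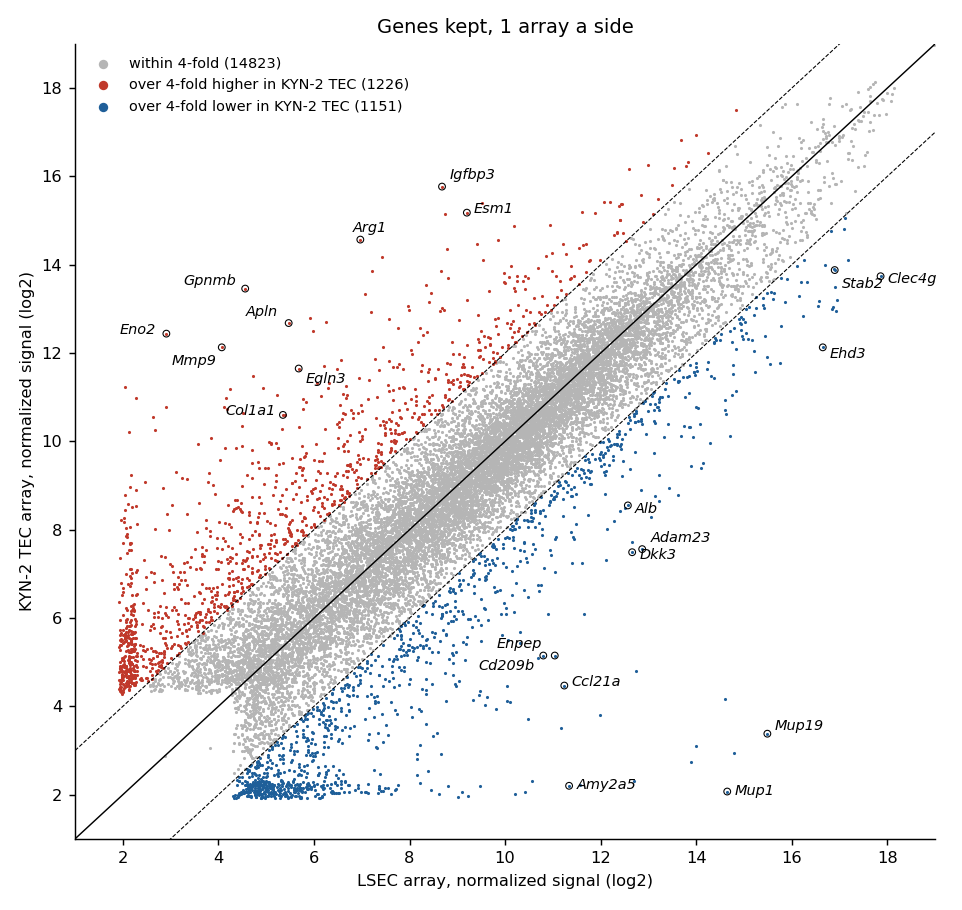
Normalized log2 signal of each gene symbol kept on the LSEC array (horizontal) against KYN-2 TEC (vertical), 1 array a side. The solid line marks equal signal and the dashed lines 4-fold, with 1226 symbols above and 1151 below them. Igfbp3, Arg1 and Esm1 lie far above the band and Clec4g, Ehd3 and the Mup genes far below it.

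Both samples carried the transcripts of endothelium. All 38 pan-endothelial markers were well above background on both arrays, 1 was over 4-fold higher in KYN-2 TEC, 10 were over 4-fold lower, and the median log2 ratio was -1.09. With each array scaled to its 75th percentile instead, 6 were over 4-fold lower. Pecam1, the gene of the CD31 antigen used for the isolation, was at 10.76 in LSEC and 10.67 in KYN-2 TEC, a log2 ratio of -0.09. Emcn, which encodes endomucin, differed by 0.15. The signals of these genes were thus nearly level, and the markers that fell did so from a high level in LSEC.

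The members lower in KYN-2 TEC were largely receptors and junction-associated proteins of the vessel wall. Kdr, the main signalling receptor for VEGF-A, was at 15.78 in LSEC and 12.61 in KYN-2 TEC, or 8.98-fold lower. Tek, the receptor for angiopoietins, went from 12.45 to 9.22, 9.36-fold lower. Ptprb, a phosphatase that restrains Tek, went from 16.88 to 13.91 and was 7.87-fold lower. Both probes of Kdr gave a like ratio (-3.41 and -3.17). Eng, a TGF-β co-receptor, was 5.30-fold lower, Egfl7 4.11-fold lower, Ramp2 4.24-fold lower and Clec14a 4.42-fold lower. Flt1, a decoy receptor for VEGF, gave -2.18 with its brightest probe, but its probes ranged from -2.18 to 1.52. Cdh5, the cadherin of endothelial junctions, was at 13.72 and 12.70, a ratio of -1.02, and Tie1 and Erg gave -0.86 and -1.58, all within 4-fold. Cd34, found on continuous capillaries and scarce in sinusoids, was the member over 4-fold higher, at 10.27 in LSEC and 13.08 in KYN-2 TEC (7.03-fold). Mcam (1.23), Plvap (0.76), the gene of the fenestral diaphragm protein, and Vwf (0.50) had positive ratios within 4-fold.

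**Figure D2:**
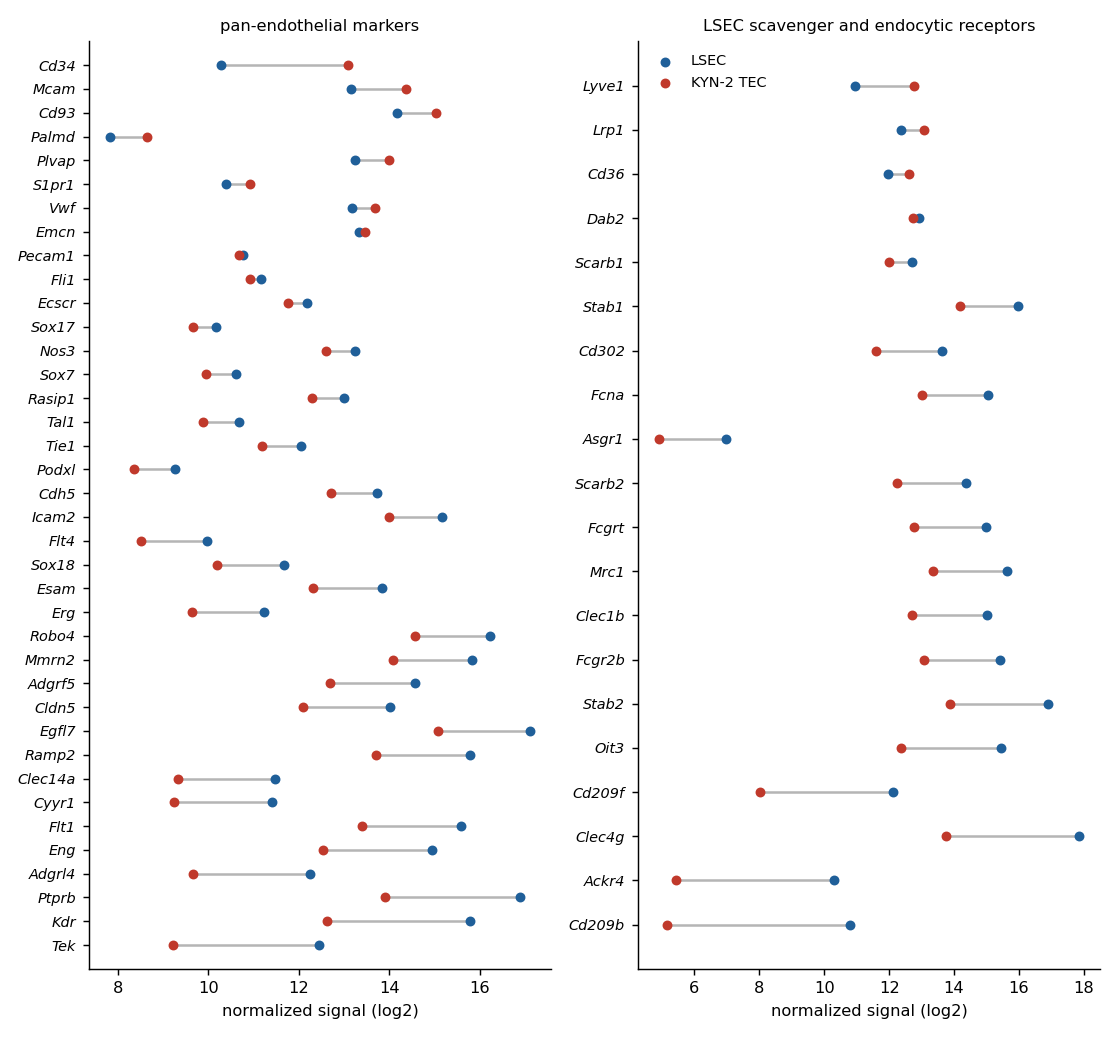
Normalized log2 signal on the LSEC array and the KYN-2 TEC array, 1 array each, for the 38 pan-endothelial markers (left) and the 20 LSEC scavenger and endocytic receptors kept (right), ordered by ratio. Pecam1 and Emcn nearly coincide, Cd34 and Lyve1 stand to the higher side in KYN-2 TEC, and most receptors stand lower.

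The scavenger and endocytic receptors that mark LSECs were lower in KYN-2 TEC but stayed above background. Of 20 kept, all above background on both arrays, 14 (70.0%) were over 4-fold lower, none was over 4-fold higher, and the median was -2.17. With 75th percentile scaling the number over 4-fold lower was 7 and the median -1.78. Clec4g, the C-type lectin LSECtin (probe at chr8:3716182-3716241, mm9), was among the brightest genes in LSEC at 17.86 and stood at 13.74 in KYN-2 TEC, 17.4-fold lower. Stab2, the hyaluronan scavenger receptor, was at 16.90 and 13.88, 8.12-fold lower, with its probes between -4.01 and -2.97. Its relative Stab1 had a ratio of -1.77 and did not pass 4-fold. Both remained bright in KYN-2 TEC. The lectin genes Cd209b (10.80 and 5.15, a log2 ratio of -5.64) and Cd209f (17.3-fold lower), and Ackr4, an atypical receptor that clears chemokines (10.31 and 5.43, 29.3-fold lower), were also lower. Oit3 was 8.39-fold and Mrc1, the mannose receptor, 4.83-fold lower, and Fcgr2b, the Fc receptor that takes up immune complexes, had a log2 ratio of -2.32. Lyve1, a hyaluronan receptor of sinusoids and lymphatics, went the other way, from 10.94 to 12.78, a ratio of 1.83 within 4-fold. Asgr1, on this list and the hepatocyte list, was 4.18-fold lower.

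The regulators and secreted factors of LSECs moved with the receptors. Of 40 genes kept, 23 (57.5%) were over 4-fold lower and 2 over 4-fold higher, with a median of -2.19. Gata4, a transcription factor that sets sinusoidal identity, was at 11.98 in LSEC and 9.71 in KYN-2 TEC (4.81-fold lower), and Maf and Meis1, also transcription factors, were 6.04-fold and 5.36-fold lower. Wnt2, a signal for hepatocyte growth and zonation, was at 14.61 in LSEC and 15.1-fold lower in KYN-2 TEC. Bmp2 and Bmp6, which set hepcidin and so iron balance, were 7.24-fold and 4.30-fold lower. Ratios of Rspo3 (-1.48), Hgf (-1.23) and Kit (-1.70) were negative within 4-fold. F8, the clotting factor made by LSECs, was at 12.40 and 8.43, 15.7-fold lower.

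Among the same genes, Dkk3, a secreted glycoprotein, went from 12.66 to 7.49 (36.1-fold lower), Adam23, a catalytically inactive ADAM protein, from 12.87 to 7.56 (39.7-fold lower) and Dnase1l3, a secreted nuclease, from 14.10 to 9.40 (26.1-fold lower). Ehd3, a protein of endocytic recycling, was at 16.65 and 12.13, 22.9-fold lower. Lifr, the leukemia inhibitory factor receptor, was 24.1-fold lower with its brightest probe. Gpr182, a receptor of sinusoidal endothelium, was at 16.58 and 13.18 and 10.6-fold lower. The exceptions that rose were Igfbp3, which binds insulin-like growth factors, and Selp, the P-selectin gene (8.82 and 10.95, 4.38-fold higher). Igfbp3 was at 8.68 in LSEC and 15.77 in KYN-2 TEC, 136-fold higher, with its probes between 5.02 and 7.09.

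Side by side, the other TEC arrays against the same LSEC array gave log2 ratios of -4.39 (HAK-1B) and -3.89 (Hepa1-6) for Clec4g, -5.65 and -4.76 for Wnt2, and 5.62 and 5.03 for Igfbp3, for which cultured Hepa1-6 cells gave 6.32. The log2 ratio of Dkk3 was -4.97 for HAK-1B TEC and -1.56 for Hepa1-6 TEC, and that of Cd209b -4.84 and -1.17. These comparisons share the LSEC array, so a chance deviation on it enters each of them.

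Genes of continuous endothelium changed in both directions. Of 30 kept, 8 were over 4-fold higher and 7 lower, with a median of 0.31. Rgcc, a regulator of cell cycle and vessel growth, went from 7.44 to 12.14, 26.1-fold higher. Gja5, the arterial connexin gene, was 5.06-fold higher, whereas Gja4, another connexin gene, was 5.58-fold lower. Fbln2, which encodes the matrix protein fibulin 2, was at 9.78 and 12.77, 7.95-fold higher, against 0.72 and -0.13 on the log2 scale in HAK-1B and Hepa1-6 TECs. The vein regulator Nr2f2 was 5.24-fold lower, Ackr1, a venular chemokine-binding protein, 9.34-fold lower, and Slco2a1, a prostaglandin transporter, 11.8-fold lower.

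Of the 15 genes with the largest rise among those above background on both arrays, several belong to growing vessels. Apln, the ligand of the apelin receptor and a tip cell gene (probe at chrX:45378593-45378652, mm9), went from 5.47 in LSEC to 12.68 in KYN-2 TEC, 148-fold higher. Esm1, a proteoglycan gene of tip cells (chr13:114008204-114008263, mm9), went from 9.20 to 15.18, 63.2-fold higher. Kcne3, a potassium channel subunit gene, went from 6.26 to 12.70, 87.2-fold higher. Against LSEC, these genes had log2 ratios of 3.15 (Apln), 2.24 (Esm1) and 3.03 (Kcne3) in HAK-1B TEC and of 2.94, 3.53 and 4.13 in Hepa1-6 TEC, below the 7.21, 5.98 and 6.45 of KYN-2 TEC. Cultured Hepa1-6 cells, which are not endothelium, had a log2 ratio of 4.22 for Apln.

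Others of the 15 are genes of myeloid cells, secretion and metabolism. Arg1, arginase, went from 6.97 to 14.57 (195-fold), Clec4e, a myeloid lectin, from 5.92 to 12.80 (117-fold), and Mmp12, macrophage elastase, from 7.22 to 13.87 (100.3-fold). Adam8, a membrane protease of leukocytes, was at 8.75 and 15.15, 84.7-fold higher. Fam20c, the kinase of the secretory pathway, went from 5.98 to 12.51 (92.4-fold), Syngr1, a vesicle membrane protein, from 7.06 to 13.33 (77.4-fold) and Lonrf3 from 4.51 to 10.65 (70.5-fold). Syngr1 was measured by probes that ranged from 3.29 to 6.27. Lpo, lactoperoxidase, was at 4.73 and 11.47, a log2 ratio of 6.74, against 1.04 in HAK-1B TEC and -0.18 in Hepa1-6 TEC. Foxa2, a transcription factor of endoderm, was at 4.93 and 11.20, 77.6-fold higher, was dim on the HAK-1B array, and had a log2 ratio to LSEC of 6.20 for Hepa1-6 TEC and 8.09 for cultured Hepa1-6 cells.

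**Figure D3:**
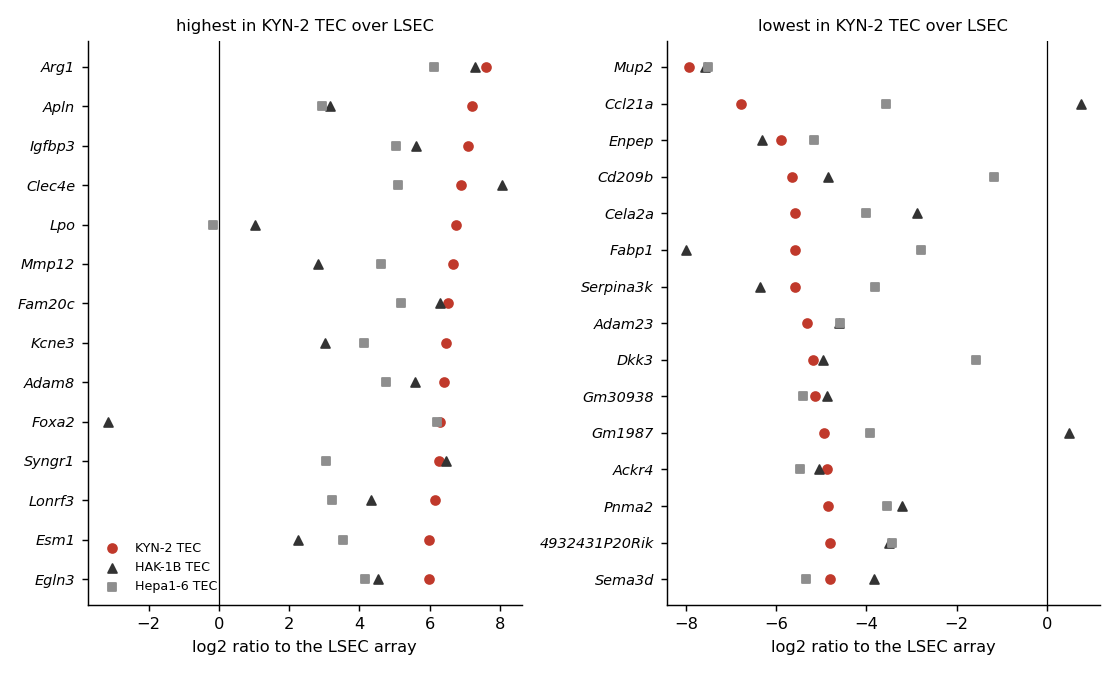
Log2 ratio to the LSEC array for 14 of the 15 highest (left) and the 15 lowest (right) genes of KYN-2 TEC among those above background on both arrays, with the ratio of HAK-1B TEC and of Hepa1-6 TEC to the same LSEC array beside it. Points are single arrays. Lpo and Foxa2 on the left and Ccl21a and Gm1987 on the right lie apart from at least 1 other TEC array.

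A further set was well above background in KYN-2 TEC and dim in LSEC. The largest bounds belonged to Gpnmb, a membrane glycoprotein of macrophages, melanocytes and some tumor cells, at 13.46 in KYN-2 TEC and at least 478-fold higher, and to Eno2, an enolase, at 12.44 and at least 289.5-fold higher. Against the same dim LSEC signal, cultured Hepa1-6 cells had a log2 ratio of 8.33 for Gpnmb. Mmp9, gelatinase B, was at least 232-fold higher. Pgf, placental growth factor, a ligand of the VEGF receptor Flt1, reached 11.19 and was at least 121-fold higher, and against the same dim LSEC signal its log2 ratio was 2.08 and 2.19 for HAK-1B and Hepa1-6 TECs. Mgarp, a mitochondrial protein gene, was at least 105-fold higher, Atp6v0d2, a proton pump subunit, at least 90.4-fold, Rpl10l at least 125-fold, 3110079O15Rik at least 105-fold and Xrcc5, a subunit of the Ku DNA repair complex, at least 88.3-fold. Rpl10l is a near copy of another ribosomal protein gene and its signal is uncertain. In this set only Mmp9, Atp6v0d2 and Vwa1 had more than 1 probe kept. The other bounds, that of Xrcc5 among them, rest on 1 probe each. Vwa1 was at least 91.4-fold higher by its brightest probe, but its probes ranged from 0.04 to 6.68.

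Within the VEGF and angiopoietin axis the higher genes were mainly ligands and the lower ones mainly receptors. Of 29 genes kept, 9 were over 4-fold higher and 7 lower, with a median of 0.94. It became 0.75 with dim genes at their bounds and -0.29 over the genes above background on both arrays. With normexp background correction 4 were over 4-fold higher and 6 lower, and with 75th percentile scaling 10 were higher and 4 lower. Vegfa went from 8.41 to 13.15, 26.7-fold higher, with its probes between 0.46 and 6.03. With Pgf and Apln, the ligand-side genes Pdgfa (4.10-fold) and Angptl4 (10.38 and 13.64, 9.59-fold), an inhibitor of lipoprotein lipase, were higher. Kdr, Tek, the co-receptor Nrp1 (4.18-fold) and Calcrl (5.18-fold), a receptor for adrenomedullin, were lower. The receptors with a rise were Aplnr, the apelin receptor, at least 3.50-fold and Met, the receptor for hepatocyte growth factor, at least 14.4-fold, both dim in LSEC.

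Tip cell and tumor endothelial markers held many of the higher genes. Of 44 kept, 16 (36.4%) were over 4-fold higher and 1 was lower, with a median of 1.30. Lamb1, a laminin chain, went from 6.49 to 11.63, 35.3-fold higher. Ednrb, an endothelin receptor, was at 7.86 and 11.63 and 13.6-fold higher, Unc5b, a netrin receptor, at 9.12 and 11.75 and 6.17-fold higher, and Cxcr4, the receptor for Cxcl12, 5.21-fold higher. Cd276 was at least 6.76-fold and Lox, a collagen cross-linking enzyme, at least 9.88-fold higher. Adgra2, a receptor of brain vessels, was the lower member, 6.21-fold. Igfbp3, Apln, Pgf, Esm1 and Kcne3, described above, are also on this list.

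Matrix proteases and their inhibitors were the group with the highest median of the 51 gene lists used here. Of 26 kept, 16 (61.5%) were over 4-fold higher, none was over 4-fold lower, and the median was 2.99, or 2.64 with bounds. Mmp13, a collagenase, went from 8.67 to 13.01, 20.3-fold higher, against log2 ratios of -0.27 in HAK-1B TEC and 2.42 in Hepa1-6 TEC. Mmp8, neutrophil collagenase, was 28.0-fold, Mmp10 at least 18.1-fold and Mmp2 at least 4.96-fold higher. For Mmp12 the log2 ratio was 2.83 in HAK-1B and 4.62 in Hepa1-6 TECs, against 6.65 here. Timp1, an inhibitor of these enzymes, was 12.8-fold higher. Of the plasminogen activators, Plau was at 10.42 and 13.44 (8.12-fold higher) and Plat at 4.98 and 9.39 (21.2-fold higher), and Plaur, the receptor gene of the former, was 10.1-fold higher. Of the coagulation genes, F3, tissue factor, went from 5.76 to 10.95, 36.7-fold higher, whereas Pros1, protein S, was 6.76-fold and Proc, protein C, 9.42-fold lower. Of 19 coagulation and fibrinolysis genes, 6 were higher and 4 lower.

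Basement membrane genes were higher in part. Of 21 kept, 6 (28.6%) were over 4-fold higher and 2 (9.52%, beside 6.69% of all symbols) were lower. The median was 0.96, or 0.62 with bounds. When the background was corrected with normexp, the median was 0.40, with 3 over 4-fold higher and 1 lower. Fn1, fibronectin, went from 10.18 to 14.87, 25.8-fold higher, with its probes between 4.59 and 4.73. Col18a1, which yields endostatin, went from 8.18 to 12.24, 16.7-fold higher. Col4a4 and Col4a3, collagen IV chains, were above background in LSEC only and were at least 29.5-fold and at least 7.05-fold lower.

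In the TGF-β family 5 of 26 genes were higher and 5 lower, with a median of 0.27. Tgfb3, a ligand, went from 7.97 to 13.07, 34.3-fold higher. The activin chains Inhba (at least 16.2-fold) and Inhbb (5.75-fold) were higher. The receptor Tgfbr3 (6.04-fold) and the BMP target Id1 (11.02 and 8.70, 4.99-fold) were lower, as were Bmp2, Bmp6 and Eng. The log2 ratio of Id1 to LSEC was -3.27 for HAK-1B TEC but 1.94 for Hepa1-6 TEC. In the Notch pathway 3 of 15 genes kept were over 4-fold higher and 2 lower, with a median of 0.24. With normexp background correction 1 was higher and 1 lower. The ligand Jag2 was at least 9.97-fold higher and the transcription partner Rbpj 6.02-fold higher. The receptor Notch1 (10.22 and 6.79, 10.8-fold) and the target Hes1 (4.50-fold) were lower. Axon guidance genes were lower more often than higher (9 and 4 of 33), including Sema3d at 10.90 and 6.10 (27.9-fold), Plxnc1, a semaphorin receptor, at 14.28 and 9.97 (19.8-fold) and the netrin receptor Unc5a (13.8-fold).

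Genes of hypoxia and glycolysis were higher, 40 of the 42 kept with a ratio above 0. When oxygen is low, the HIF transcription factors accumulate and bind a short core motif to raise genes for glucose uptake, glycolysis and their own feedback. Of 42 genes kept, 19 (45.2%) were over 4-fold higher, 1 was over 4-fold lower, and the median was 1.84. Slc16a3, which exports lactate, went from 8.79 to 14.36, 47.4-fold higher, and Slc2a1, the glucose transporter GLUT1, from 9.54 to 14.10, 23.7-fold higher. Egln3, an oxygen sensor that acts on HIF, went from 5.68 to 11.65, 62.7-fold higher. Ankrd37 went from 8.29 to 12.40, 17.3-fold higher, against log2 ratios of 1.12 in HAK-1B TEC and 2.63 in Hepa1-6 TEC. Bnip3, a mitophagy receptor, was at 11.60 and 15.19, 12.1-fold higher.

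Several enzymes of glycolysis were over 4-fold higher, while 22 of the 42 genes of the whole list lay within 4-fold. Hk2, a hexokinase, was at 8.38 and 11.58 (9.23-fold), Aldoc 7.62-fold, Pgam1 at 12.43 and 15.38 (7.75-fold) and Pgk1 at 14.83 and 17.51 (6.41-fold) higher. Tpi1 was 9.30-fold higher by its brightest probe with a range of 0.24 to 4.17, and Eno1 5.41-fold with a range of 1.06 to 3.90. Epas1, the HIF-2α gene, was the lower member, at 15.90 in LSEC and 13.67 in KYN-2 TEC, 4.71-fold lower. The log2 ratio of Bnip3 to LSEC was 2.08 and 2.11 and that of Pgk1 1.60 and 1.63 for HAK-1B and Hepa1-6 TECs, against 3.59 and 2.68 for KYN-2 TEC.

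The promoters of 4 of the higher genes are shown as examples whose windows hold the HIF core motif. Each runs from 250 bases before to 50 bases after the annotated start, 5′ to 3′ on the gene's strand, from RefSeq (GRCm38.p6), with ACGTG or GCGTG, or the reverse complement of either, in capitals. Egln3 lies at chr12:54203825-54204124 on the minus strand, Slc16a3 at chr11:120948817-120949116 on the plus strand, Slc2a1 at chr4:119108495-119108794 on the plus strand and Ankrd37 at chr8:45999801-46000100 on the minus strand. Where motifs overlap, the capitals run on.
Egln3: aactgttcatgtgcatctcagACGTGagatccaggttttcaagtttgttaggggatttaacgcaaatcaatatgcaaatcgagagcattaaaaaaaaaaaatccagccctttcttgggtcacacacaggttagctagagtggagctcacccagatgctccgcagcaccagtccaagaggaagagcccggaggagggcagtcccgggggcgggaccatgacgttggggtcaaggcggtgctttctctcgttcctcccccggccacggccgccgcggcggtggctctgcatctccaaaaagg
Slc16a3: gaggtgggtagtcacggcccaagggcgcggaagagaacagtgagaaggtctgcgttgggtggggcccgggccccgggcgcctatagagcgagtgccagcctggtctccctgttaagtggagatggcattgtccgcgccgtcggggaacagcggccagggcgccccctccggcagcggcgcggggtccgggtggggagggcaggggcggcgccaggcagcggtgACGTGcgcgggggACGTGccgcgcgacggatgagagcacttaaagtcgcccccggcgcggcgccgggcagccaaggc
Slc2a1: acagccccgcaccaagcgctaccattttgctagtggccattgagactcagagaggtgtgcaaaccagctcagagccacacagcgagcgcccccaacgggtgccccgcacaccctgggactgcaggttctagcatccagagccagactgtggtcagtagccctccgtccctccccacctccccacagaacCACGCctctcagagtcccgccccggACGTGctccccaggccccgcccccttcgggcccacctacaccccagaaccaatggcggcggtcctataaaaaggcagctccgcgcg
Ankrd37: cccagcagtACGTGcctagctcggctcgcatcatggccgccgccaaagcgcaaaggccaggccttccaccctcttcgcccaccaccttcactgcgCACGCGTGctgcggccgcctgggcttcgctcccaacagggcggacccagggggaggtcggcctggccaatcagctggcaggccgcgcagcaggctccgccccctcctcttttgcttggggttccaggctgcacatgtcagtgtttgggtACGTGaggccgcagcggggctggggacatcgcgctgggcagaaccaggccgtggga
These windows hold 1 motif in Egln3, 2 in Slc16a3, 2 in Slc2a1 and 4 in Ankrd37. Of the 19 higher genes, 16 had a promoter in the table and 13 of these held a motif (81.2%). Of the other hypoxia and glycolysis genes kept, 18 of 19 held it (94.7%), and 12628 of 27025 over all genes with a promoter there (46.7%). The share in the genes that passed 4-fold was thus not above that in the rest of the list. Eno2, the gene with the largest bound in this group, held no motif in its window. A match is a description of the letters and not a measured binding site.

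Mitotic genes were also higher. Of 39 kept, 23 (59.0%) were over 4-fold higher, none was lower, and the median was 2.09, but only 6 passed 4-fold when the background was corrected with normexp. Many lay close to the limit, as Mki67 at 10.06 and 12.11 (a log2 ratio of 2.05) and Top2a at 8.44 and 10.62 (2.18). Cdc20, the activator of mitotic exit, was at 8.53 and 11.41 (7.35-fold), Ccnb1, cyclin B1, at 6.71 and 9.46 (6.76-fold) and Kif2c, a kinesin, at least 8.63-fold higher. S-phase genes had a median of 1.17, with 4 of 35 higher and 1 lower. Cdkn1a, the p21 inhibitor of the cell cycle, was itself 6.41-fold higher, and Cdkn1c, the p57 inhibitor, 5.42-fold lower.

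**Figure D4:**
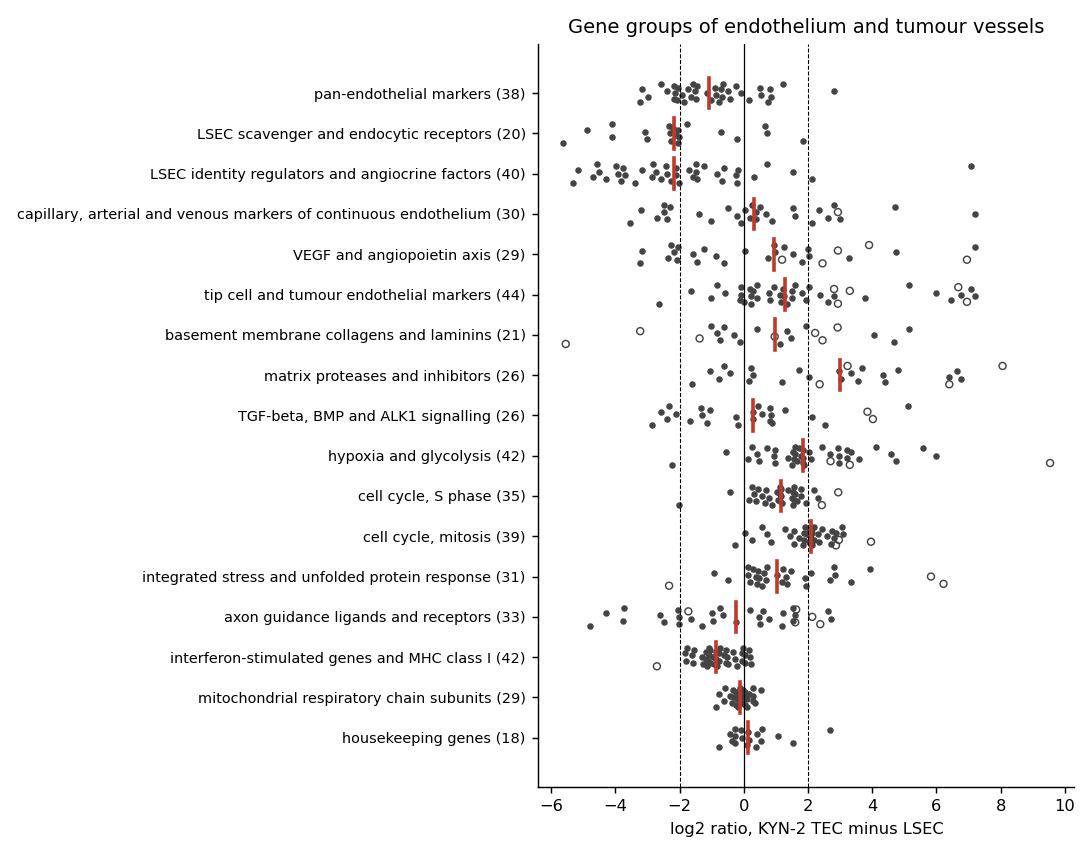
Log2 ratio, KYN-2 TEC minus LSEC, of each gene kept in 17 gene groups (number of genes in brackets, 1 array a side). Filled points were above background on both arrays and open points on 1, bars mark medians and dashed lines 4-fold. Matrix proteases, mitosis and hypoxia lie to the right, the LSEC groups to the left, and mitochondrial and housekeeping genes about 0.

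Genes of amino acid supply and the integrated stress response, which adapts protein synthesis to shortage, were higher in part. Of 31 kept, 8 were over 4-fold higher and 1 lower, with a median of 1.03. Psat1, an enzyme of serine synthesis, went from 6.77 to 10.71 (15.3-fold), Mthfd2, of mitochondrial folate metabolism, was 10.2-fold, Asns, asparagine synthetase, 7.18-fold and Trib3 6.94-fold higher. Slc7a11, the cystine transporter, was at least 14.5-fold and Vldlr at least 55.7-fold higher. For HAK-1B TEC the log2 ratio of Trib3 was -0.78 and that of Slc7a5, a neutral amino acid transporter, 0.15, against 2.80 and 2.67 here. The arginine pathway had 5 of 21 genes higher and none lower, with Arg1, the nitric oxide synthase Nos2 (6.92 and 10.64, 13.2-fold) and the arginine transporters Slc7a1 (5.35-fold) and Slc7a2 (at least 5.72-fold).

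Respiratory chain, housekeeping and BCL2 family genes had medians within the quartiles of all symbols. None of 29 respiratory chain subunits passed 4-fold, with a median of -0.12, and of 18 housekeeping genes 1, the glycolytic Pgk1, was higher, with a median of 0.12. None of 19 BCL2 family genes passed 4-fold, with a median of -0.19. Interferon-stimulated and MHC class I genes lay lower, with a median of -0.88, below the lower quartile of all symbols (-0.71), and 37 of 42 had a negative ratio. None of them was over 4-fold higher and 1, Oas1a, was lower, at least 3.50-fold. Complement genes were often lower, 13 of 27 (48.1%) with a median of -1.70, but the median was -0.79 over the 23 genes above background on both arrays, and with normexp background correction it was -0.74 and 8 were over 4-fold lower. The lower genes included Cfd, adipsin (9.23 in LSEC, at least 82.2-fold lower), C4b (14.77 and 11.53, 9.45-fold lower) and Cd55, a shield against complement (9.22-fold lower). The receptors C3ar1 (9.66-fold) and C5ar1 (4.24-fold), both of myeloid cells, were higher.

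Markers of cells other than endothelium also differed, and their part in the results above was not tested. Genes of tumor macrophages and monocytes were over 4-fold higher for 18 of 37 kept (48.6%) and lower for 2, with a median of 1.89 and a summed normalized signal of 462766 in LSEC and 970158 in KYN-2 TEC. Spp1, osteopontin, went from 9.51 to 15.40 (59.2-fold), Trem2, a receptor of lipid-laden macrophages, from 10.95 to 14.90 (15.5-fold) and Ptgs2, cyclooxygenase 2, from 8.34 to 13.55 (36.8-fold). Ms4a7 was 9.76-fold higher, against log2 ratios of 5.49 in HAK-1B TEC and 0.52 in Hepa1-6 TEC. Of the defining monocyte markers, Ccr2 had a log2 ratio of 1.71 and Ly6c2 of 0.34, within 4-fold. None of the defining markers of this class was dark in KYN-2 TEC. Fn1 and Thbs1, on this list, are also made by fibroblasts and endothelium.

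Kupffer cell markers, which label the macrophages resident in sinusoids, went the other way. Of 23 kept, 8 were over 4-fold lower and none higher, with a median of -1.30 and a summed signal of 823517 in LSEC and 423865 in KYN-2 TEC. Clec4f was at 16.70 in LSEC (6.50-fold lower in KYN-2 TEC), Cd5l at 17.17 and 14.10 (8.39-fold lower) and Marco at 14.75 and 11.04 (13.1-fold lower). Vsig4 and Timd4 were 4.75-fold and 6.02-fold lower. All these were bright on both arrays, so Kupffer cell transcripts were measured in the LSEC sample and in the tumor sample.

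A set of 15 genes of lysosome-rich and osteoclast-type macrophages, written after their values had been seen, had 8 over 4-fold higher, with a median of 2.04. These were Gpnmb, Atp6v0d2, Mmp9, Mmp12, Spp1, Trem2, Lgals3, which encodes galectin 3 (7.61-fold), and Ctsk, cathepsin K (9.14 and 11.18, 4.11-fold), and Gpnmb was also bright in cultured Hepa1-6 cells, as given above. The log2 ratio of Ctsk was -0.22 and -0.77 for HAK-1B and Hepa1-6 TECs.

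Neutrophil genes gave a mixed picture. Of 27 kept, 9 were over 4-fold higher and 2 lower, with a median of 1.12, but the summed signal was 106749 in LSEC and 103659.8 in KYN-2 TEC. S100a8 (7.51 and 9.12) and S100a9 (9.14 and 10.27), the calprotectin genes that neutrophils hold in bulk, had log2 ratios of 1.61 and 1.12, within 4-fold, against 6.82 and 6.72 in HAK-1B TEC. Ly6g was dim on both arrays, and Cxcr2, a receptor that guides neutrophils, was dim in LSEC and at least 1.05-fold higher in KYN-2 TEC. The members that rose were Mmp8, Mmp9, Clec4e, Clec4d (30.1-fold), Il1r2, a decoy receptor for interleukin 1 (22.1-fold), and Chil3 (14.8-fold), with Padi4, Trem3 and BC100530 among the rest.

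Lymphoid and platelet markers were also read. T and NK cell genes had 3 of 27 higher (11.1%, beside 7.13% of all symbols) and 2 lower with a median of -0.01, and Cd3e was at 9.60 and 9.59. The probes of Cd3d ranged from -4.27 to 1.78. B cell genes had a median of 0.40 with 2 of 18 lower (11.1%, beside 6.69%), and Jchain, of plasma cells, was 17.1-fold lower. Dendritic cell and MHC class II genes had a median of -0.09, with Itgax, CD11c, at 8.22 and 12.56, 20.3-fold higher, and Zbtb46, which endothelium also carries, 5.94-fold lower. Platelet and erythroid genes had a median of -0.74, below the lower quartile of all symbols, with 17 of 20 ratios negative and 2 over 4-fold lower, and the platelet markers Pf4 (1.65), Ppbp (-1.59) and Gp9 (-0.70) were within 4-fold.

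Genes of matrix-producing cells were higher in part. Stellate cell and fibroblast genes had 9 of 31 higher and 3 lower, with a median of 0.60 and a summed signal of 38698 in LSEC and 91817 in KYN-2 TEC. Col1a1, the collagen I chain, went from 5.35 to 10.60 (a log2 ratio of 5.25), Col1a2 from 8.05 to 11.99 (3.95) and Col3a1 from 6.49 to 10.40 (3.91). Dcn, decorin, differed by 0.22, and Lrat, of stellate cells, was dim on both arrays. Pericyte genes had 5 of 19 higher and none lower, with a median of 0.87. Pdgfrb, the pericyte growth factor receptor, was at 4.72 and 7.56 (7.18-fold higher), Kcnj8 at 9.65 and 12.37 (6.58-fold higher) and Ndufa4l2 at least 19.7-fold higher, while Rgs5 had a ratio of 0.87. Anpep, aminopeptidase N, which is on the pericyte list and is also found on tumor vessels and myeloid cells, went from 8.65 to 13.86, 37.1-fold higher.

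Hepatocyte genes were mostly lower. Of 46 kept, 32 (69.6%) were over 4-fold lower and 2 higher, with a median of -3.05, or -2.83 with bounds. Alb, albumin, was at 12.57 in LSEC and 8.55 in KYN-2 TEC, 16.3-fold lower, against log2 ratios of -6.41 in HAK-1B TEC and 2.44 in Hepa1-6 TEC. Fgb, fibrinogen β, was 9.14-fold lower and Apoa1 had a ratio of -1.61. Fgg, fibrinogen γ, was at 9.94 and 5.61, and Pck1, of gluconeogenesis, was at 8.76 in LSEC and at least 24.9-fold lower. The summed signal of the list was 153860.3 in LSEC and 75400.3 in KYN-2 TEC. The 2 higher members were Cps1 (4.59 and 6.71) and Ass1 (9.89 and 11.91), urea cycle enzymes. Cholangiocyte genes had a median of 0.68, with Krt18 5.88-fold higher and the marker Krt19 at 1.20, while Epcam was dim on both arrays.

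The largest bounds of all belonged mainly to the major urinary proteins, pheromone carriers that hepatocytes secrete. Of 11 Mup genes kept, a list written after the values had been seen, 10 were over 4-fold lower and Mup3 had a ratio of -0.75. Mup19 was at 15.49 in LSEC and at least 4418-fold lower, Mup1 at 14.65 and at least 3515-fold lower, and Mup2, above background on both arrays, at 12.74 and 4.81. The summed signal was 145405 in LSEC and 189.8 in KYN-2 TEC. The log2 ratio of Mup2 was -7.57 and -7.51 for HAK-1B and Hepa1-6 TECs. Mup genes are near copies of each other, so their probes cannot be taken as separate measurements. Pancreatic acinar genes, also listed after their values had been seen, were over 4-fold lower for 22 of 27 kept (81.5%), with a median of -5.03, or -4.22 with bounds. Cela2a, an elastase, was at 10.68 and 5.09 (48.1-fold lower), Amy2a5, an amylase, at 11.34 in LSEC and at least 355-fold lower, and Cpb1, a carboxypeptidase, at 8.81 and at least 61.3-fold lower. Such enzymes are made by the exocrine pancreas and not by liver, and they were well above background on the LSEC array.

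**Figure D5:**
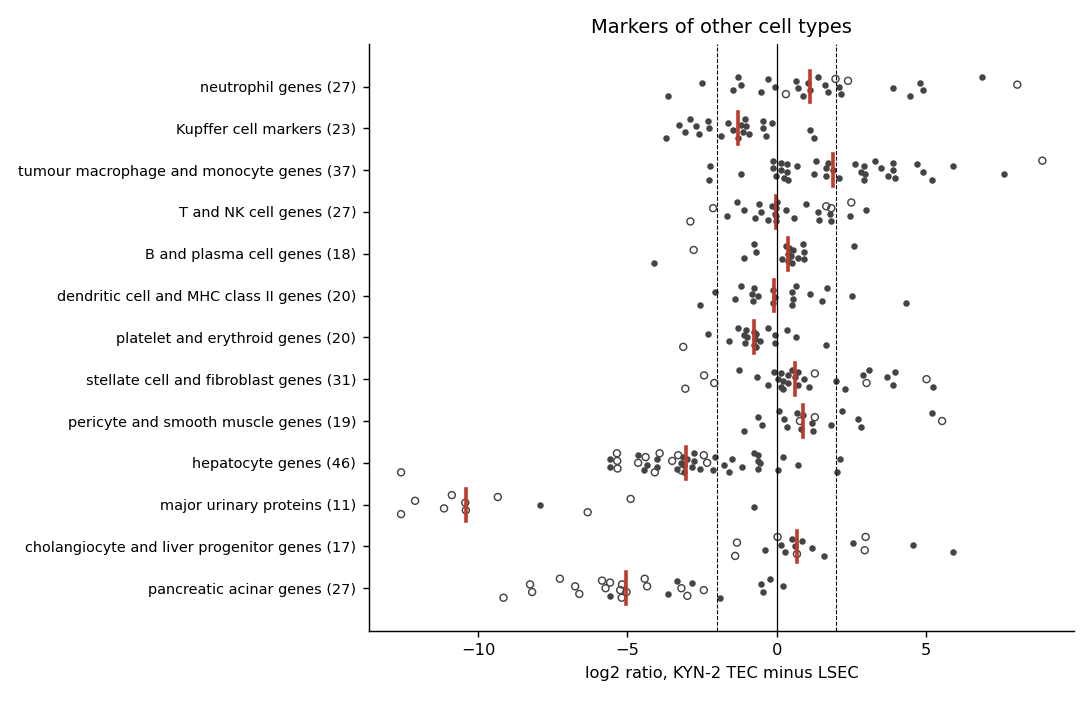
Log2 ratio, KYN-2 TEC minus LSEC, of each gene kept in 13 lists of other cell types (number of genes in brackets, 1 array a side). Filled points were above background on both arrays and open points on 1, where the plotted value depends on the dim signal, bars mark medians and dashed lines 4-fold. Tumor macrophage genes lie to the right, and Kupffer cell, hepatocyte, Mup and acinar genes to the left.

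Of the chemokines, which draw leukocytes to tissue, more were higher than lower. Of 23 CC chemokines and receptors kept, 6 were higher and 2 lower, and of 21 CXC members 7 were higher and 1 lower. Ccl2 and Ccl7, which attract monocytes, were at 12.41 and 15.02 (6.12-fold) and at 10.26 and 13.75 (11.2-fold), and Ccl9 at 9.98 and 13.81 (14.2-fold). Cxcl12 was at 8.79 and 11.77 (7.89-fold higher), against log2 ratios of 0.59 in HAK-1B TEC and -1.34 in Hepa1-6 TEC. Cxcl14 was 17.2-fold and the neutrophil attractant Cxcl3 at least 48.0-fold higher. Cxcl13, which attracts B cells, was 9.65-fold lower.

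Ccl21a, a chemokine of lymphatic vessels and lymph nodes, was the gene with the second largest fall among those above background on both arrays, at 11.24 in LSEC and 4.47 in KYN-2 TEC, 109-fold lower. Against the same LSEC array its log2 ratio was 0.75 for HAK-1B TEC and -3.57 for Hepa1-6 TEC. Gm1987 (12.66 and 7.73, 30.5-fold lower) is a near copy of it, so the signal of either probe may come from both genes. Of 8 lymphatic endothelial genes, listed after their values had been seen, Mmrn1 was 6.00-fold lower and Pdpn, podoplanin, which fibroblasts and macrophages also make, was at 6.20 and 11.71, 45.6-fold higher.

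Of inflammatory and immune checkpoint genes, Il1rn, the antagonist of interleukin 1, went from 7.19 to 12.94 (53.9-fold higher) and Tnf from 11.54 to 14.37 (7.11-fold higher), while Il33, an alarmin of endothelium, was 5.10-fold and the receptor gene Il1r1 4.84-fold lower. The log2 ratio of 2.83 for Tnf stood against 1.31 and 0.17 in HAK-1B and Hepa1-6 TECs. Of 22 checkpoint and TNF family genes, 6 were higher and 3 lower. Tnfrsf9, 4-1BB, was at least 63.1-fold higher and its ligand Tnfsf9 went from 9.21 to 13.20. Havcr2, TIM-3, was 10.4-fold and Lag3 8.90-fold higher, and Tnfsf10, TRAIL, was 9.62-fold lower by its brightest probe with a range of -3.27 to 0.12. The heat-shock genes Hspa1a (16.33 and 13.62) and Hspa1b (15.23 and 11.57), which are near copies, were 6.53-fold and 12.6-fold lower.

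The 15 largest falls also held genes of peptidases, hepatocytes and unknown function. Enpep, aminopeptidase A, which cleaves angiotensin, was at 11.04 in LSEC and 5.15 in KYN-2 TEC (59.1-fold lower), with its probes between -5.89 and -3.75. Dpp4, another surface peptidase, was 9.35-fold lower. Fabp1, a fatty acid carrier of hepatocytes, was 48.1-fold and Serpina3k 47.9-fold lower. Pnma2 (13.63 and 8.79), 4932431P20Rik (12.12 and 7.31) and Gm30938 (9.48 and 4.34) were 28.6-fold, 28.0-fold and 35.3-fold lower. Slc39a8, a zinc and manganese transporter, was 20.5-fold lower.

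Because microRNAs of TECs were the subject of the study, the transcripts that host microRNAs were also read. The arrays measured the host transcript and not the mature microRNA. Of 25 host genes kept, 3 were over 4-fold higher and 7 lower, with a median of -0.12. The mature sequences hosted by 5 of them are shown from RefSeq (GRCm38.p6), with the seed (bases 2 to 8) in capitals, since the seed decides which transcripts are recognised. No seed was shared between them.
miR-139-5p: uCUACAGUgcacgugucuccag
miR-139-3p: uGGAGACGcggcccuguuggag
miR-126a-3p: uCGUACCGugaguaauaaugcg
miR-214-3p: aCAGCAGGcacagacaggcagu
miR-199a-5p: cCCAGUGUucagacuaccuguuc
miR-455-3p: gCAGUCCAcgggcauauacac
miR-155-5p: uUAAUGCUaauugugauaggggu
Pde2a, a phosphodiesterase gene that hosts miR-139 (chr7:101475382-101475403 for the 5p arm and chr7:101475418-101475439 for the 3p arm, plus strand), was at 16.83 in LSEC and 14.76 in KYN-2 TEC, 4.21-fold lower. Egfl7, which hosts miR-126a (chr2:26591402-26591423), was at 17.11 and 15.07. Dnm3os, the noncoding host of miR-214 (chr1:162223438-162223459) and of a copy of miR-199a (chr1:162217844-162217866), was at 8.15 in LSEC and dim in KYN-2 TEC, at least 37.2-fold lower. No other copy of miR-199a was read. Col27a1, the host of miR-455 (chr4:63256904-63256924), was at 7.32 and 4.24, 8.44-fold lower. Mir155hg, the host of miR-155 (chr16:84714143-84714165), was at 5.55 in KYN-2 TEC and dim in LSEC, at least 2.44-fold higher. For HAK-1B and Hepa1-6 TECs the log2 ratios to LSEC were -2.44 and -2.31 for Pde2a, and -2.12 and -2.92 for Col27a1. H19, a fetal noncoding RNA, went from 4.84 to 9.40, 23.7-fold higher. The probes of Trpm1, the host of miR-211, ranged from -4.36 to 7.63, so no direction is given for it.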

How the data were processed

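The authors hybridized Cy3-labelled cRNA to 60-mer mouse arrays of 1 colour and deposited the scanner's spot intensity, background-subtracted within the array (gProcessedSignal), with flags of 0 or 1, and a table of normalized intensity values. The labels name Agilent Feature Extraction 9.5.1.1 and the file headers 10.7.1.1. The methods' account of the arrays names Huh-7 where the labels name HAK-1B. Hybridization of human tumor RNA to the mouse probes was not tested.

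Control spots were left out, spots of a probe were averaged to 56605 probes, and their log2 was quantile normalized over this pair. Probes well above background on at least 1 array were kept (33282), and a gene took its brightest. Context ratios came from each array normalized with LSEC in the same way. Named genes were the 15 highest and 15 lowest above background on both arrays, the 10 largest bounds each way, members of 51 lists that passed 4-fold or had the largest ratios, and all endothelial and LSEC markers. Members and lists were chosen with earlier results of these data known, and 4 lists were added after values were seen. Of 35886 probes with a RefSeq accession, 32994 were found in the gene table, with another symbol for 1535, and the names on the array were kept. Probe positions are those of the files (mm9). The code was tested on simulated data, with Python 3.11.15, numpy 2.4.6, pandas 2.3.3, matplotlib 3.10.9, R 4.3.3 and, for normexp, limma 3.58.1. Some members of these lists are not reported here.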

Additional observations from a re-analysis of the deposited data

How the results depend on the processing

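The counts over 4-fold, 1599 higher and 1498 lower, moved most with the treatment of dim signals and with the limit itself. With normexp background correction (offset 50) they were 641 and 485, and 635 and 482 of these were among the main ones. Restricted to probes above background on both arrays they were 828 and 695. At 2-fold they were 3756 and 4068, at 8-fold 637 and 543, and by the methods' rule of size within this pair 757 and 658. A further setting, chosen after seeing the data, counted a dim gene only if its bound passed 4-fold, with the unequal lowest signals given above. The counts were then 1079 and 1332. Under the other settings (5-array quantile or 75th percentile scaling, the deposited table, no filter or other filters, median over probes or spots) they lay between 1457 and 1754 and between 1325 and 1661. Of 414 named genes over 4-fold, 276 stayed so with normexp and between 387 and 414 under the other settings that tested all of them. The median of the VEGF and angiopoietin axis turned to -0.29 over genes above background on both arrays, where genes dim in LSEC are left out, and Trpm1 turned to 1.63 with the median over its probes, which disagree. With normexp, mitotic genes over 4-fold went from 23 to 6, hypoxia genes from 19 to 15, tumor macrophage genes from 18 to 17 and hepatocyte genes over 4-fold lower from 32 to 19. With 75th percentile scaling, LSEC scavenger receptors over 4-fold lower went from 14 to 7 and pan-endothelial markers from 10 to 6. Genes near background, dim on 1 array, have no measured ratio. The bounds given as "at least" hold for the main processing only. With normexp the ratios of Amy2a5, Atp6v0d2 and Aplnr were smaller in size than their stated bounds. No paired analysis was possible because neither sample had a replicate.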

Other observations

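Further groups also held genes over 4-fold, to be read beside the 7.13% higher and 6.69% lower of all symbols. Of 37 interleukin 1 family and NF-kB response genes kept, 6 (16.2%) were over 4-fold higher and 4 (10.8%) lower. Of 30 immediate early genes 5 (16.7%) were higher and 2 (6.67%) lower, with a median log2 ratio of 0.53. The higher ones included Egr2 (13.59 in KYN-2 TEC, 12.0-fold) and Nr4a2 (9.55 in LSEC and 12.39 in KYN-2 TEC, 7.16-fold). Canonical histone genes had a median log2 ratio of 1.27 over 34 kept, with 3 (8.82%) over 4-fold higher and none lower. Hist1h3c was at 9.66 and 13.40 (13.4-fold higher), against log2 ratios of 0.65 in HAK-1B TEC and 1.78 in Hepa1-6 TEC. Histone genes are near copies of each other. In the EGF and IGF families 6 of 23 genes were higher and none lower, with Areg, an EGF receptor ligand, at 4.85 and 7.87 (8.10-fold) and Igfbp5 at 8.90 and 11.98 (8.46-fold). With normexp 2 of these families' genes were over 4-fold higher, and the log2 ratio of Areg was 1.69, within 4-fold. Of integrins, Itga7 was at least 19.7-fold and Itga3 10.6-fold higher, and Itga8 was 5.95-fold lower. Of 23 Wnt pathway genes kept, 1 (4.35%) was over 4-fold higher and 4 (17.4%) lower. Nkd1, a Wnt target, was at 10.81 and 7.14, 12.7-fold lower, against log2 ratios of -3.98 in HAK-1B TEC and 2.12 in Hepa1-6 TEC. Noncoding transcripts named lincRNA on the array gave 132 higher and 152 lower of 1983 kept. These shares were close to those of all gene names (7.30% and 6.84%).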
